A study of Rattus norvegicus with 31 samples.

Results

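Livers of 3 rats given clothianidin (CTD) were set directly against livers of 4 rats given imazalil (IMZ), without the controls entering the contrast. These 7 libraries belong to a series of 31, and the comparison covered all 19904 genes with a summed read count of 2 or more over the 31 libraries, of 26312 genes in the count table. All animals were young adult female Wistar rats (Crl:WI) treated by gavage for 28 days, and each rat gave its own total RNA library from frozen liver. CTD was given at 288 mg/kg body weight per day and IMZ at 93 mg/kg body weight per day. The vehicle, aqueous carboxymethyl-cellulose, was shared by every group, including the 8 controls. Livers that received mixtures or thiacloprid (THI) alone are used below only as reference points and in the shared fit. They are 4 rats on THI alone at 108 mg/kg and 4 on THI at 54 with CTD at 134 mg/kg. A further 4 received THI at 54 with IMZ at 46 mg/kg, and 4 received IMZ at 46 with CTD at 135 mg/kg. At the CTD dose of 288 mg/kg at least 1 rat had been killed in a moribund state, which left 3. Because the doses of CTD and IMZ differed, the compound and its dose cannot be told apart. The spread between these libraries is that between rats of a group.

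CTD and THI are neonicotinoid insecticides, which act on nicotinic acetylcholine receptors of insects. IMZ is an azole fungicide that blocks the fungal sterol demethylase CYP51. In rodent liver many azoles and other xenobiotics act through the nuclear receptors CAR and PXR, which switch on cytochrome P450 genes such as Cyp2b1 and Cyp3a23/3a1. Adult hepatocytes rarely divide, but a growth stimulus can bring them back into the cell cycle. Genes for DNA replication are then driven by E2F factors at the start of S phase. Genes for mitosis are driven later by the MuvB complex with B-MYB and FOXM1. These act through promoter elements called the cell cycle genes homology region (CHR) and the CCAAT box.

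Each CTD library held 31.8 to 38.4 M counts and each IMZ library 40.2 to 46.3 M, where the whole series spans 31.8 to 101.2 M, so that depth was somewhat lower in the CTD group. Albumin mRNA, which marks hepatocytes, held 13.5 to 14.4% of the counts in CTD livers and 12.0 to 13.9% in IMZ livers. In the paper's read summary, CTD rats 2 and 3 had the lowest shares of uniquely mapped reads of the series. The part of this in the results below was not tested. The CTD libraries stood apart from the rest of the series. In 480 genes (2.41% of those tested; 1.04% above, 1.37% below) all 3 CTD libraries lay beyond all 28 others, against 2 genes for the 4 IMZ libraries and 2 to 16 for the other groups. The other groups held 4 livers each, or 8 for the controls. A group of fewer libraries lies beyond all others more easily, so these counts are not strictly alike.

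CTD and IMZ livers differed in 930 differentially expressed genes (DEGs; edgeR quasi-likelihood test, Benjamini-Hochberg adjusted p below 0.05), which is 4.67% of the genes tested. With CTD, 453 of them were higher (2.28%) and 477 were lower (2.4%). The genes with the largest increases at a mean log2 CPM above 0 (CPM, read counts scaled to a common library size after TMM) were mostly genes of mitosis and DNA synthesis, such as Pbk, Kif11, Top2a, Mcm6 and Ccne2. The largest decreases included Rps16, Gdf15, Ky, Jun and Scamp3. Most changes were small, with a median absolute log2 fold change of 0.54 among the DEGs. Among the 869 DEGs with a mean log2 CPM above 0 (7.69% of such genes), 61 were higher and 47 lower by more than 1 log2 unit, and 4 and 6 by more than 2. In 14 DEGs all libraries of CTD or of IMZ were at 0, and their fitted folds are not given. The median log2 fold change over all genes was 0, and 3565 genes (17.9%) had an unadjusted p below 0.05. In 836 of the 930 DEGs the CTD and IMZ libraries did not overlap, where over all genes tested 6.29% lay wholly above and 6.82% wholly below. The count of DEGs dropped to 521 without CTD rat 1 (181 higher, 340 lower), to 641 without CTD rat 2, and to 638, 491 and 633 without IMZ rats 1, 2 and 4. As a reference, the same fit gave 2518 DEGs (12.7%) for CTD against control and 50 (0.251%) for IMZ against control, comparisons that share their control livers.

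**Figure D1:**
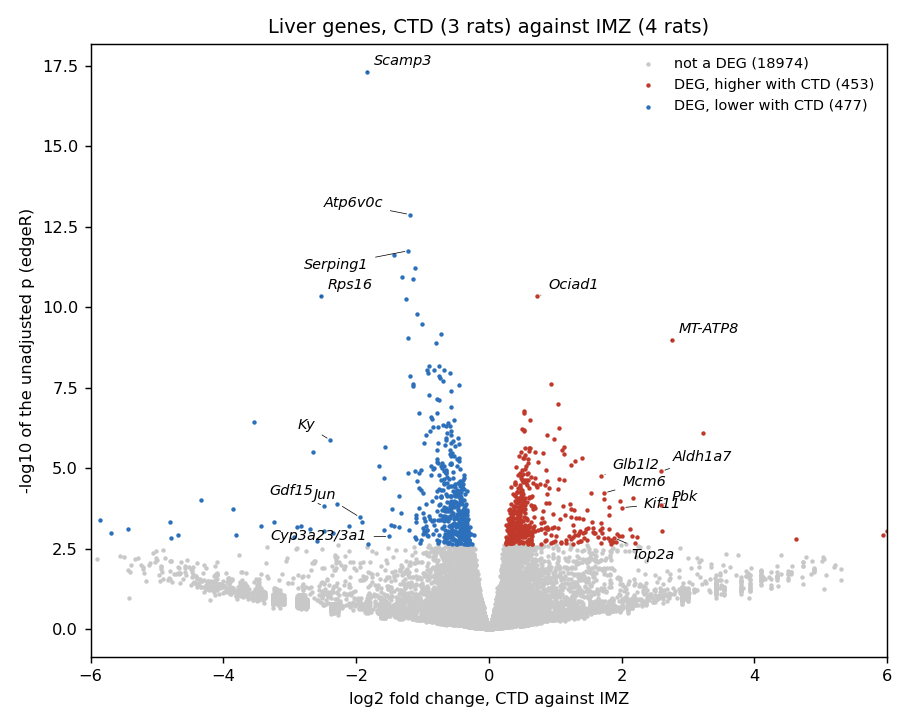
Log2 fold change of CTD against IMZ (x axis; positive means higher with CTD) and −log10 of the unadjusted p (y axis) for the 19904 genes tested. Red points are the 453 DEGs higher with CTD and blue points the 477 lower; 8 genes lie outside the x axis. Scamp3 is the highest point, on the side lower with CTD.

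Genes of mitosis and cell division were higher in CTD than in IMZ livers. Of 44 tested members of this list, 12 rose and none fell (27.3%, against the 4.67% of all genes), and all 44 had a positive log2 fold change with a median of 1.45, against 0 over all genes. Both compounds lay above the controls, with list medians of 2.84 for CTD and 1.30 for IMZ against the same control livers. The DEGs were Kif11 and Tpx2, which build the spindle, Mad2l1, Bub1, Ttk and Spc25 of the kinetochore and its checkpoint, Smc2 and Smc4 of condensin, Cdk1, the kinase that starts mitosis, Cdca3, Foxm1 and Top2a. The summed level of the list was 495.1, 203.2 and 165.3 CPM in the 3 CTD livers and 107.0, 85.8, 157.6 and 120.3 CPM in the 4 IMZ livers, and 53.5 to 85.8 CPM in controls. Thus every CTD liver lay above every IMZ liver, but the third CTD liver was only slightly above the third IMZ liver, and the first CTD liver was far above all others.

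Top2a (ENSRNOG00000032404), the topoisomerase that untangles replicated chromosomes, was at 57.8, 18.6 and 16.5 CPM with CTD and at 6.06, 5.03, 14.7 and 7.98 CPM with IMZ, while controls ran from 1.33 to 5.12 CPM with a median of 2.78. The groups did not overlap, although 1 IMZ liver came close to the lower CTD livers. Its log2 fold change was 1.88 (SE 0.54, adjusted p = 0.0371). Cdk1 (ENSRNOG00000000632) was at 13.01, 5.09 and 2.77 CPM with CTD and at 1.99, 1.104, 2.82 and 2.05 CPM with IMZ, against a control median of 0.688, a log2 fold change of 1.81 (SE 0.48, adjusted p = 0.0256). Here the lowest CTD liver fell within the IMZ range. Kif11, the kinesin that pushes spindle poles apart, was at 15.5, 4.34 and 4.52 CPM with CTD and at 1.99, 1.30, 3.09 and 1.71 CPM with IMZ (log2 fold change 2.01, SE 0.47, adjusted p = 0.0101). Smc4, a condensin subunit, had the smallest p of the list at a smaller fold, with 29.1, 16.4 and 13.2 CPM against 8.47, 7.38, 11.6 and 8.52 CPM (log2 fold change 1.12, SE 0.20, adjusted p = 0.000825). Mki67, the proliferation marker Ki-67, did not pass the test. It was at 45.2, 15.8 and 10.9 CPM with CTD and at 6.89, 4.59, 12.8 and 8.90 CPM with IMZ (log2 fold change 1.53, 95% interval 0.51 to 2.56, adjusted p = 0.0754). Ccnb1, cyclin B1, did not pass either, at a log2 fold change of 1.61 (95% interval 0.45 to 2.77, adjusted p = 0.101).

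Spindle and division genes outside the list were also among the 12 largest increases. Pbk, a kinase active in mitosis, was at 8.45, 4.39 and 3.11 CPM with CTD and at 0.424, 0.785, 1.25 and 1.10 CPM with IMZ (log2 fold change 2.58, SE 0.59, adjusted p = 0.00883). Ckap2, a spindle protein, was at 21.6, 4.86 and 6.80 CPM with CTD and at 2.55, 1.153, 3.78 and 2.70 CPM with IMZ (log2 fold change 2.12, SE 0.57, adjusted p = 0.0257). In both genes the lowest CTD liver lay above the highest IMZ liver. Ckap2l, its relative, and Kif20b, a kinesin of cytokinesis, had log2 fold changes of 1.88 and 1.67. Without CTD rat 1 the values of Ckap2l and Kif20b were 1.01 (adjusted p = 0.432) and 1.07 (0.261), and both also missed the threshold without IMZ rat 1, 2 or 4 (0.0694 to 0.15).

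DNA replication genes were higher with CTD as well. Of 36 members, 12 rose and none fell (33.3%), all 36 had a positive sign, and the median log2 fold change was 0.70. Against the control livers the list median was 0.90 for CTD and 0.22 for IMZ. The DEGs included 5 of the 6 subunits of the MCM helicase, which opens DNA at origins, namely Mcm2, Mcm3, Mcm4, Mcm6 and Mcm7, while Mcm5 missed the threshold (log2 fold change 1.60, adjusted p = 0.0632). The others were Pcna, the sliding clamp, Pola1 and Pole2 of the polymerases, Fen1, which trims Okazaki fragments, Chaf1a and Chaf1b, which place histones on new DNA, and Rpa2. Mcm6 (ENSRNOG00000003703) was at 27.2, 10.5 and 10.5 CPM with CTD and at 3.41, 4.81, 7.29 and 3.87 CPM with IMZ, with controls from 2.26 to 4.61 CPM, so the groups did not overlap (log2 fold change 1.73, SE 0.37, adjusted p = 0.00519). Pcna was at 34.0, 23 and 18.6 CPM with CTD and at 14.3, 14.7, 17.7 and 12.9 CPM with IMZ (log2 fold change 0.76, SE 0.16, adjusted p = 0.00338). Chaf1a was at 6.74, 3.85 and 4.49 CPM with CTD and at 1.81, 1.496, 2.36 and 2.53 CPM with IMZ (log2 fold change 1.29, SE 0.24, adjusted p = 0.00117). In all 3 genes the lowest CTD liver was above the highest IMZ liver. The summed level of the list was 418.3, 263.5 and 225.2 CPM in CTD livers and 175.9, 180.2, 216.9 and 182.5 CPM in IMZ livers, against 157.0 to 209.3 CPM in controls.

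In the list of G1 cyclins, CDKs and E2F factors, 4 of 21 members rose and none fell (19.05%), with a median log2 fold change of 0.53. They were Ccne1 and Ccne2, the E cyclins that start S phase, E2f1, and the CDK4/6 inhibitor Cdkn2c. Ccne2 was at 5.49, 2.56 and 1.94 CPM with CTD and at 0.694, 0.687, 1.82 and 0.627 CPM with IMZ (log2 fold change 1.81, SE 0.42, adjusted p = 0.00984), so that 1 IMZ liver reached nearly to the CTD range. Ccnd1, cyclin D1, which carries mitogen signals, had a log2 fold change of 0.53 and did not pass (adjusted p = 0.196). Of 31 DNA damage signalling and repair genes, 3 rose (9.68%), a share near the 7.69% of all genes with a mean log2 CPM above 0. They were the checkpoint kinase Atr, the mismatch repair protein Msh6 and Fancd2. Over this list the median log2 fold change was 0.52, with 28 members positive and 3 negative. The median ranged from 0.22 to 0.60 over all alternatives. An unadjusted p below 0.05 was found in 14 of the 31, where 17.9% of all genes had one. Atr was at 19.04, 15.6 and 14.9 CPM with CTD and 10.6, 10.6, 13.4 and 11.5 CPM with IMZ (log2 fold change 0.52, SE 0.12, adjusted p = 0.0104).

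These counts of cell cycle genes depended on single livers. Without CTD rat 1 the count of DEGs was 1 of 44 mitosis genes, 1 of 36 replication genes, and 0 in the G1 and DNA damage lists, and without IMZ rat 1, 2 or 4 it was 2 in the G1 list. Without IMZ rats 1, 2 or 4 it was 4, 3 and 4 for mitosis and 5, 5 and 6 for replication, while without CTD rat 3 it was 18 and 15. The direction of the lists stayed, as the median log2 fold change ranged from 0.72 to 1.79 for mitosis and from 0.33 to 0.84 for replication over all alternatives. Without CTD rat 1, log2 fold changes were 1.05 for Top2a (adjusted p = 0.372), 0.97 for Cdk1 (0.347), 1.12 for Kif11 (0.229), 2.07 for Pbk (0.081), 1.11 for Mcm6 (0.121), 0.47 for Pcna (0.0932), 1.23 for Ccne2 (0.149) and 0.39 for Atr (0.115). Top2a, Cdk1 and Ckap2 also missed the threshold without IMZ rat 1, 2 or 4, at adjusted p values of 0.0598 to 0.126, and Ckap2 without CTD rat 1 (0.33). Smc4 and Chaf1a stayed DEGs with any single liver left out.

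**Figure D2:**
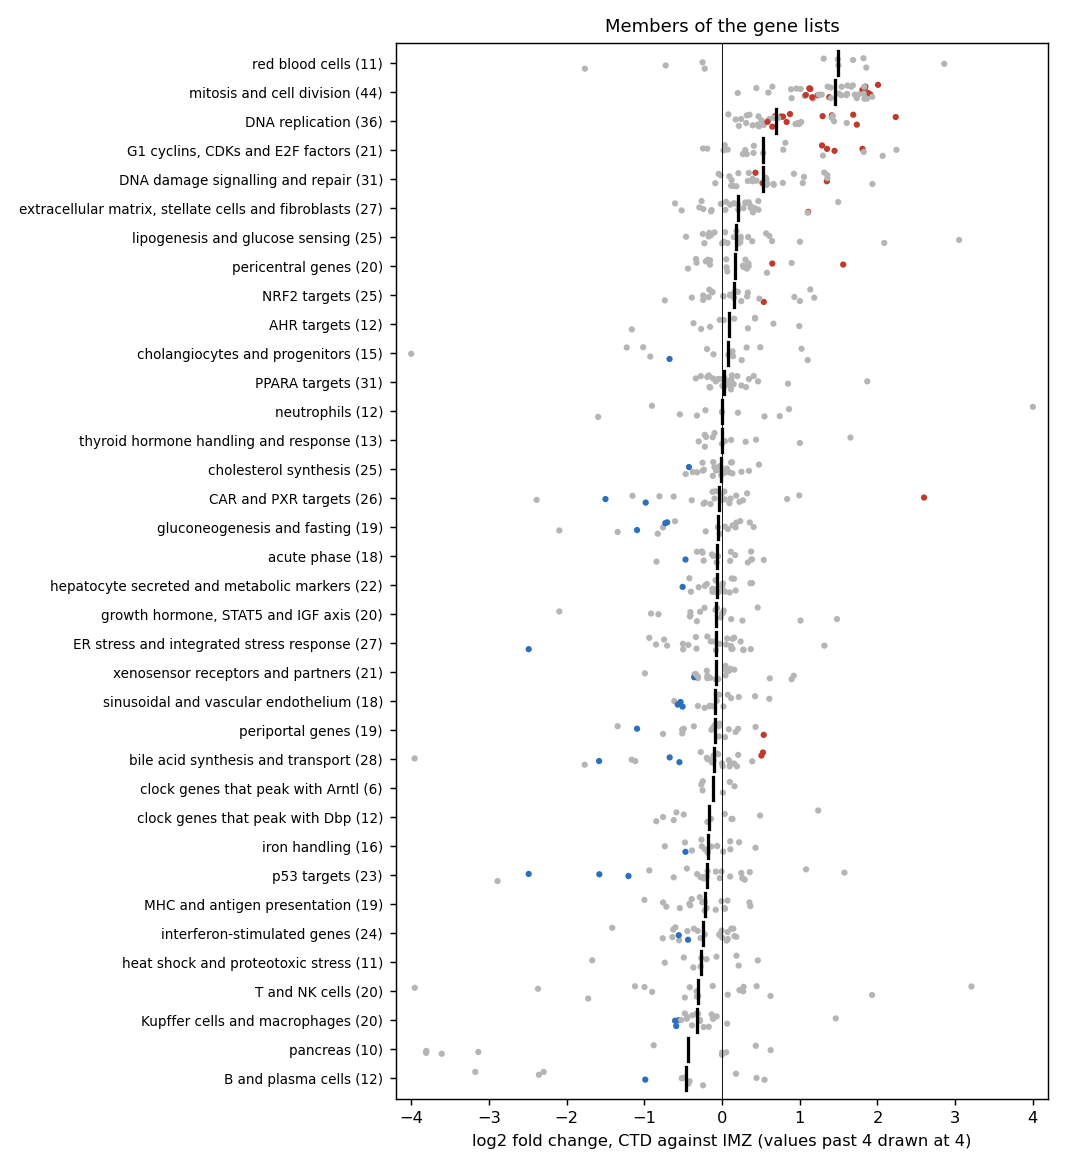
Log2 fold change of CTD against IMZ (x axis) for each tested member of the 36 gene lists (rows; 1 point per gene, values past 4 drawn at 4). Red points are DEGs higher with CTD, blue points DEGs lower, grey points genes that did not pass, and the black bar is the list's median, which is furthest right for the mitosis and red blood cell lists.

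The promoters of 3 mitosis genes and of Mcm6 are printed because the members of each list moved together and the elements named above are known for these genes. Each run is the 150 bases before the RefSeq transcription start on GRCr8, in the direction of the gene. Capitals mark matches, on either strand, to TTTGAA (the CHR), CCAAT (the CCAAT box) and TTTNGCGC (E2F), and the last letter of a CHR match in Mki67 is also the first of a CCAAT match. Top2a lies at chr10:84473094-84473243 (minus strand), Cdk1 at chr20:19265143-19265292 (plus), Mki67 at chr1:199952594-199952743 (minus) and Mcm6 at chr13:42404353-42404502 (minus).
Top2a: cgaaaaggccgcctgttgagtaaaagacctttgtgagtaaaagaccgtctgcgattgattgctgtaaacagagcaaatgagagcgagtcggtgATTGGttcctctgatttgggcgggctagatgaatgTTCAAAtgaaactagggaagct
Cdk1: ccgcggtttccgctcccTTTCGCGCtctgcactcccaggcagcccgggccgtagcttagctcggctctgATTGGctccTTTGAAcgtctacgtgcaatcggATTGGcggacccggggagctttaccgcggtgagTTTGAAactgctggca
Mki67: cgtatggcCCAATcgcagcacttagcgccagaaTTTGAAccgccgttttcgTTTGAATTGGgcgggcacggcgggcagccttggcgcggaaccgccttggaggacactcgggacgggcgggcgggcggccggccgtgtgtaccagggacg
Mcm6: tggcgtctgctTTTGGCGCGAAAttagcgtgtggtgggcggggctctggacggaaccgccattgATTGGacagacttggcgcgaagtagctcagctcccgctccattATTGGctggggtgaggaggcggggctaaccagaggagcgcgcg
The 3 mitosis promoters each hold at least 1 CHR and 1 CCAAT match, and Cdk1 also holds 1 E2F match. Mcm6 holds 2 overlapping E2F matches on opposite strands, 2 CCAAT matches and no CHR match.

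Over the lists the same elements were counted in windows from 250 bases before to 50 after the start. TTTGAA was present in 26 of 38 matched mitosis promoters (68.4%) and in 3 of 31 matched replication promoters (9.68%), against 18.3% of all 33469 promoters and 12.6% of the 11978 matched promoters of genes tested. TTTNGCGC showed the opposite distribution, with 13 of 31 replication promoters (41.9%) and 2 of 38 mitosis promoters (5.26%), against 1.28% of all promoters and 2.05% of those of genes tested. CCAAT was present in 73.7% of the mitosis and 64.5% of the replication promoters, against 37.5% of all promoters. Among 321 matched DEGs higher with CTD, 19.3% held TTTGAA and 6.85% TTTNGCGC, while among 358 matched DEGs lower with CTD the shares were 12.6% and 2.23%. These are matches of letters and say nothing about binding in these livers.

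Gdf15, Jun and Plk3, which respond to cell stress, were lower with CTD than with IMZ. Gdf15 (ENSRNOG00000019661), a stress-induced cytokine that suppresses feeding, was at 8.51, 7.73 and 7.32 CPM with CTD and at 18.8, 42.7, 74.0 and 41.0 CPM with IMZ, with controls from 19.2 to 52.8 CPM. All 3 CTD livers were thus below all IMZ livers and all controls (log2 fold change −2.49, SE 0.58, adjusted p = 0.00944). Jun, the AP-1 subunit, was at 16.8, 17.5 and 27.1 CPM with CTD and at 29.8, 124.1, 99.3 and 60.6 CPM with IMZ, and at a median of 65.4 CPM in controls (log2 fold change −1.94, SE 0.48, adjusted p = 0.0159). Plk3, a stress-responsive kinase, was at 3.54, 2.20 and 1.85 CPM with CTD and at 8.70, 7.996, 6.90 and 6.72 CPM with IMZ. Controls had a median of 5.30 CPM, so the CTD livers lay below and the IMZ livers above it (log2 fold change −1.58, SE 0.32, adjusted p = 0.00266). Gdf15, Plk3 and the antiproliferative gene Btg2 (log2 fold change −1.20, SE 0.33, adjusted p = 0.0271) are the 3 DEGs among 23 p53 targets (13.04%), all lower, with a list median of −0.20. For this list and those that follow, the share of DEGs was 4.67% over all genes. It was 7.69% over genes with a mean log2 CPM above 0, and a few members make up each list's share. The p53 targets used most often as readouts did not pass, with log2 fold changes of −0.25 for Cdkn1a (95% interval −0.83 to 0.33) and 0.10 for Mdm2 (−0.24 to 0.45). Jun missed the threshold without CTD rat 1 (adjusted p = 0.0813), CTD rat 2 (0.0708) or IMZ rat 2 (0.0677), and Btg2 without CTD rat 1 (0.0707), CTD rat 2 (0.137), IMZ rat 2 (0.0736) or IMZ rat 3 (0.0962).

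Tat, Foxo1 and Klf15 of the fasting response were also lower with CTD. In the gluconeogenesis and fasting list, 3 of 19 members fell and none rose (15.8%), with a median log2 fold change of −0.05. Tat, the glucocorticoid-induced enzyme of tyrosine breakdown, was at 797.1, 544.4 and 505.3 CPM with CTD and at 1098, 1566, 1349 and 1243 CPM with IMZ (log2 fold change −1.09, SE 0.27, adjusted p = 0.0161). Foxo1, the insulin-inhibited factor that drives gluconeogenic genes, was at 7.34, 8.04 and 6.83 CPM with CTD and at 13.9, 11.8, 10.2 and 13.1 CPM with IMZ (log2 fold change −0.73, SE 0.16, adjusted p = 0.00609). Klf15, which links amino acid breakdown to gluconeogenesis, fell by 0.71 on the log2 scale (SE 0.17, adjusted p = 0.0112). The 3 CTD livers lay below the 4 IMZ livers in each of these genes. Pck1, the rate-setting gluconeogenic enzyme, did not pass, at a log2 fold change of −0.76 (95% interval −1.62 to 0.10), and in CTD livers it spread from 540.1 to 2506 CPM. Igfbp1, an insulin-repressed binding protein, was at 69.0, 13.3 and 59.5 CPM with CTD and at 115.6, 326.7, 211.9 and 152.5 CPM with IMZ without overlap, but the controls alone spread from 64.2 to 690.7 CPM and the test was not passed (log2 fold change −2.09, adjusted p = 0.102). Tat missed the threshold without CTD rat 2 (0.0745), CTD rat 3 (0.072) or IMZ rat 2 (0.0565), and Klf15 without CTD rat 3 (0.0817) or IMZ rat 2 (0.0656). How recently the rats had eaten is not given in the labels, and its part in these values was not tested.

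Xenobiotic-metabolising genes mostly did not differ by the test, although both compounds had raised several of them over control. Of 26 CAR and PXR targets, 1 rose and 2 fell between the compounds (11.5%), with a median log2 fold change of −0.04. Cyp3a23/3a1 (ENSRNOG00000047745), a PXR-driven P450, was at 0.754, 0.905 and 0.369 CPM with CTD and at 1.52, 2.16, 3.09 and 0.973 CPM with IMZ, against 0.0609 to 0.247 CPM in controls. The CTD livers lay between controls and IMZ livers, with a log2 fold change of −1.50 against IMZ (SE 0.43, adjusted p = 0.0352) and of 2.30 for CTD and 3.80 for IMZ against the same controls. Por, the reductase that feeds electrons to P450 enzymes, was at 91.6, 146.7 and 69.2 CPM with CTD and at 200.9, 257.5, 202.7 and 149.2 CPM with IMZ (log2 fold change −0.98, SE 0.27, adjusted p = 0.0277). Aldh1a7 (ENSRNOG00000017878), an aldehyde dehydrogenase, went the other way at low counts, with 1.01, 3.70 and 1.54 CPM against 0.0965, 0.466, 0.663 and 0.173 CPM (log2 fold change 2.60, SE 0.50, adjusted p = 0.00189). Its close paralog Aldh1a1 was at 253.3, 488.8 and 341.4 CPM with CTD and 212.4 to 386.8 CPM with IMZ, with no call (log2 fold change 0.27, 95% interval −0.36 to 0.90), and reads shared between them could have been split by the counting. Cyp3a23/3a1 missed the threshold without CTD rat 1 (0.0889), CTD rat 3 (0.145), IMZ rat 2 (0.0861) or IMZ rat 3 (0.124), and Por without CTD rat 1 (0.116), CTD rat 3 (0.143), IMZ rat 1 (0.0504) or IMZ rat 2 (0.104).

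For the best known induced genes the compounds could not be separated at this spread, which is no evidence that they act alike. Cyp2b1, the classical CAR target, was at 13.99, 178.5 and 20.9 CPM with CTD and at 37.7, 471.7, 110.2 and 13.5 CPM with IMZ, where the control median was 0.379 CPM. Both groups were far above control, overlapped fully, and spread over more than 10-fold within a group, with a log2 fold change of −1.15 and a 95% interval of −2.98 to 0.68. Without IMZ rat 2 the sign turned, to 0.41. Cyp2b2, which shares most of its sequence with Cyp2b1, was at 116.9, 420.6 and 212.0 CPM with CTD and 79.6 to 468.0 CPM with IMZ (log2 fold change 0.10, 95% interval −0.98 to 1.17). Abcc3, a basolateral efflux transporter, had a log2 fold change of −0.24 (95% interval −0.84 to 0.36), and lay 2.17 (CTD) and 2.41 (IMZ) above the shared controls. Cyp1a1, the main AHR target, was at 44.4, 9.28 and 27.4 CPM with CTD and 7.72 to 77.6 CPM with IMZ (log2 fold change −0.27, 95% interval −1.90 to 1.36), and none of 12 AHR targets passed the test, of which 2 had an unadjusted p below 0.05. Among 25 NRF2 targets only Gclm, the modifier subunit of glutamate-cysteine ligase, rose with CTD. It was at 144.5, 145.2 and 94.0 CPM against 94.9, 75.2, 102.3 and 80.3 CPM (log2 fold change 0.54, SE 0.13, adjusted p = 0.0108), and missed the threshold without CTD rat 1 (0.102), CTD rat 2 (0.0832) or IMZ rat 2 (0.0554).

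Of the lipid and bile acid lists, the 28 genes of bile acid synthesis and transport held 2 higher and 3 lower DEGs (17.9%, median log2 fold change −0.11). Slco1b3, a hepatocyte uptake transporter, was at 1184, 1165 and 1350 CPM with CTD and at 808.9, 798.4, 862.2 and 1002 CPM with IMZ (log2 fold change 0.51, SE 0.10, adjusted p = 0.00312), and Akr1d1, the steroid 5β-reductase, rose by 0.53. Cyp8b1, which makes the 12-hydroxylated bile acids, fell by 1.58 on the log2 scale (SE 0.43, adjusted p = 0.0271). Scp2, a peroxisomal sterol carrier, was at 533.0, 679.1 and 618.4 CPM with CTD and at 734.3 to 980.3 CPM with IMZ (log2 fold change −0.55, SE 0.11, adjusted p = 0.00256). Klb, the FGF co-receptor that represses bile acid synthesis, fell by 0.67. Cyp7a1, the rate-limiting enzyme, spread from 41.3 to 161.3 CPM with CTD and from 51.7 to 469.3 CPM with IMZ and did not pass (log2 fold change −1.12, 95% interval −2.38 to 0.15). Of 25 cholesterol synthesis genes only Tm7sf2, a sterol reductase, was a DEG (log2 fold change −0.43, SE 0.12, adjusted p = 0.035). Cyp51, the mammalian counterpart of the fungal target of IMZ, was at 625.3, 680.6 and 609.0 CPM with CTD and 545.5 to 614.0 CPM with IMZ (listed as CYP51A1; log2 fold change 0.12, 95% interval −0.24 to 0.48). None of 31 PPARA targets and none of 25 lipogenesis and glucose sensing genes passed, where 3 and 4 had an unadjusted p below 0.05. Tm7sf2 missed the threshold without any CTD rat or without IMZ rat 1, 2 or 4 (adjusted p = 0.0526 to 0.15), and Klb without CTD rat 1 (0.0718) or IMZ rat 4 (0.0645). Cyp8b1 missed it without CTD rat 1 (0.158), CTD rat 2 (0.103), IMZ rat 3 (0.0664) or IMZ rat 4 (0.0823), and Akr1d1 without CTD rat 2 or 3 or IMZ rat 1, 2 or 3 (0.0558 to 0.156).

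The remaining lists held few DEGs. Of the pericentral genes, which are expressed around the central vein, Rhbg, an ammonium transporter, rose by 1.56 (SE 0.40, adjusted p = 0.0195) from 4.22 to 6.53 CPM with IMZ to 11.8 to 21.4 CPM with CTD, and Car2, carbonic anhydrase 2, rose by 0.65, 2 of 20 members (10%). Of 19 periportal genes, 1 rose, Pigr, the receptor that moves IgA into bile (log2 fold change 0.54, SE 0.12, adjusted p = 0.00883), and 1 fell, Tat. Acute phase genes held 1 DEG of 18, Hpx, the heme scavenger hemopexin, at 3041, 3541 and 3426 CPM with CTD and 4367 to 4975 CPM with IMZ (log2 fold change −0.47, SE 0.11, adjusted p = 0.00937). Hpx was also the only DEG of 16 iron handling genes. Of 24 interferon-stimulated genes Stat2 and Ifi27 fell by 0.44 and 0.56, and of 21 xenosensor receptors and partners Keap1, the repressor of NRF2, fell by 0.36. Gdf15 was the only DEG of 27 ER stress genes. No member passed among 12 clock genes that peak with Dbp, 6 that peak with Arntl, 11 heat shock genes, 19 MHC genes, 20 genes of the growth hormone axis and 13 of thyroid hormone handling, of which 2, 0, 3, 3, 9 and 6 had an unadjusted p below 0.05, where 17.9% of all genes had. Rhbg, Stat2, Ifi27, Hpx and Car2 missed the threshold without CTD rat 1, at adjusted p values of 0.138, 0.124, 0.172, 0.0621 and 0.0521, Pigr without CTD rat 2 (0.0547), and Keap1 without CTD rat 2 (0.0989) or 3 (0.0663) or IMZ rat 1 (0.0567) or 2 (0.0661). Leaving out other IMZ or CTD rats also ended the calls of Rhbg (0.061 and 0.0688 without IMZ rats 1 and 2), Stat2 (0.0739 without IMZ rat 2), Ifi27 (0.0518 to 0.104) and Car2 (0.0674 to 0.206).

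The other genes with the largest folds belong to no shared list. Ky, a protein best known from muscle, was at 1.51, 2.20 and 1.48 CPM with CTD and at 7.33, 11.04, 10.9 and 7.26 CPM with IMZ, while controls ran from 11.2 to 32.5 CPM. Both groups lay below the control range, and the CTD livers lay furthest below it (log2 fold change −2.39, SE 0.40, adjusted p = 0.000395). Rab27a, a GTPase of secretion, was at 0.962, 0.620 and 0.831 CPM with CTD and at 2.12 to 3.24 CPM with IMZ (log2 fold change −1.66, SE 0.31, adjusted p = 0.00145). Glb1l2, a galactosidase-like gene, was the case in which IMZ and not CTD stood off from control. It was at 1.72, 1.91 and 2.06 CPM with CTD and at 0.637, 0.442, 0.466 and 0.778 CPM with IMZ, and at a median of 1.72 CPM in controls (log2 fold change 1.70, SE 0.33, adjusted p = 0.00232). Its log2 change from the shared controls was 0.37 with CTD (adjusted p = 0.44) and −1.32 with IMZ (adjusted p = 0.032). RGD1305254, Cdhr2, Kcp and Dusp15 completed the 12 largest decreases, with log2 fold changes from −1.57 to −1.43. Of the 12 largest increases, 2 stayed DEGs without CTD rat 1 and 6 without IMZ rat 1, 2 or 4, and of the 12 largest decreases at least 9 did with any liver left out.

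The smallest p values did not belong to the cell cycle genes. Of the 10 genes with the smallest p, named after their values were seen, 9 were lower with CTD, and in all 10 the 3 CTD libraries lay beyond the 28 others. Scamp3 (ENSRNOG00000048405), a membrane protein of the recycling pathway, was at 11.2, 11.9 and 12.6 CPM with CTD and at 40.5, 46.5, 41.9 and 41.1 CPM with IMZ, with controls from 35.4 to 44.7 CPM (log2 fold change −1.83, SE 0.10, adjusted p = 9.59e-14). Its spread within each group was a few CPM, while the groups stood far apart. Serping1 (ENSRNOG00000007457), the C1 inhibitor of complement, was at 180.1, 147.5 and 146.0 CPM with CTD and at 341.3, 396.6, 373.8 and 352.4 CPM with IMZ (log2 fold change −1.21, SE 0.11, adjusted p = 1.16e-08). Atp6v0c, a subunit of the proton pump of lysosomes, was at 38.1, 44.0 and 33.5 CPM with CTD and at 82.7 to 93.4 CPM with IMZ (log2 fold change −1.19, SE 0.09, adjusted p = 1.32e-09). Rps16 (ENSRNOG00000019578), a protein of the small ribosomal subunit, was at 20.0, 7.16 and 6.86 CPM with CTD and at 54.8, 75.5, 69.8 and 63.5 CPM with IMZ (log2 fold change −2.53, SE 0.26, adjusted p = 1.01e-07). Ribosomal protein genes have processed pseudogenes, so reads of Rps16 can be split by the counting. The others were Slc10a7 (−1.43), Tmem260 (−1.12), Htra1, a secreted protease (−1.31), Dynll2, a dynein light chain (−1.14), the adaptor Crkl (−1.25) and, as the gene higher with CTD, Ociad1 (0.73, SE 0.07, adjusted p = 1.01e-07). All 10 stayed DEGs in each of the 16 alternatives run for the comparison, including every left-out liver.

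These genes were near control level in the mixtures that contained CTD at 134 or 135 mg/kg. Scamp3 was at 38.3 to 45.3 CPM with THI + CTD and at 35.9 to 45.4 CPM with IMZ + CTD, within or close to the control range. Over the 10 genes the median change from control, in the direction of CTD, was 1.29 log2 units with CTD alone, 0.08 with THI + CTD and −0.04 with IMZ + CTD. Over the 50 smallest p values, of which 43 were lower with CTD, these medians were 0.90, 0.04 and 0.01, and 2 and 1 of the 50 passed the test in the mixtures against control. The 10 and the 50 genes were picked by their p in these same CTD livers, which favours smaller changes in other livers. The mitosis list was not picked by p, so the sets are unlike. Its medians against control were 2.84 with CTD alone, 1.96 with THI + CTD and 2.15 with IMZ + CTD. None of its 44 members lay beyond all 28 other libraries in the CTD group. Of all DEGs, 147 of the 453 higher (32.5%) and 224 of the 477 lower (47.0%) lay beyond the 28 others. Over all genes tested, 1.04% lay above and 1.37% below. The DEGs were chosen for a difference between CTD and IMZ, and the IMZ libraries are among the 28. This choice favours such counts, which are descriptions. Dose, rats and libraries of CTD alone cannot be told apart from each other in these values.

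**Figure D3:**
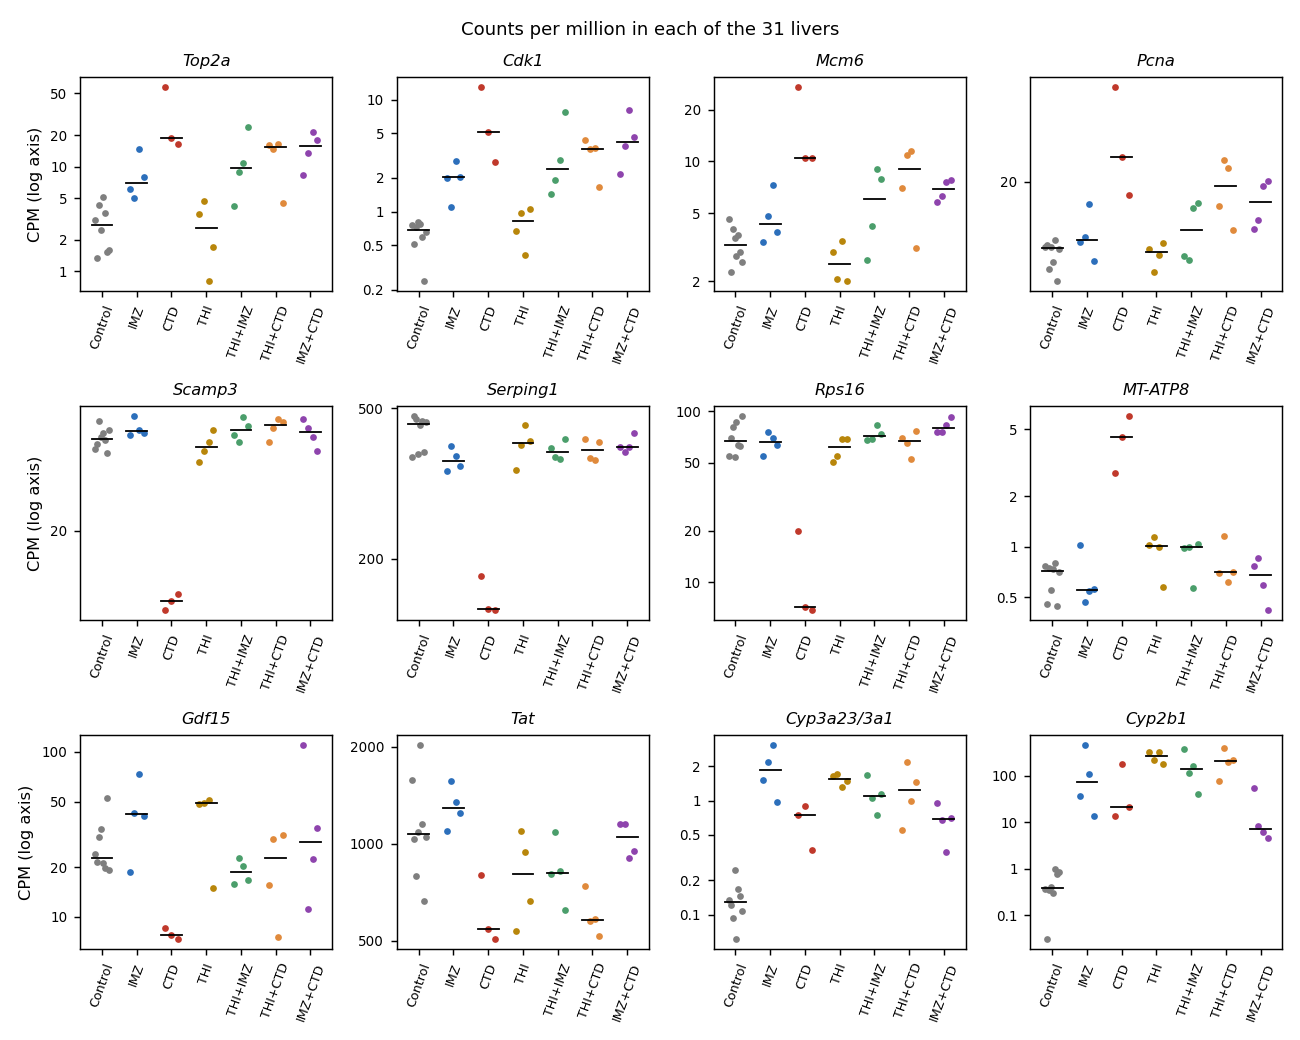
CPM (log axis) of 12 genes in each library of the 7 groups; points are rats and bars are group medians. The 3 CTD livers are separate from all other groups in Scamp3, Serping1, Rps16 and MT-ATP8, whereas in Top2a, Cdk1, Mcm6 and Pcna at least 1 library of another group reaches into the CTD range.

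Mitochondrially encoded mRNAs were higher with CTD. This set was described after its values were seen, starting from MT-ATP8, the gene with the largest increase at a mean above 1 CPM. Of 13 such mRNAs, which encode subunits of the respiratory chain and ATP synthase, 9 rose and none fell, where 4.67% of all genes were DEGs, with a median log2 fold change of 0.87. In 12 of the 13 all CTD livers lay above all IMZ livers, as in 6.29% of all genes, and in 7 they lay beyond the 28 other libraries, as in 2.41% of all genes. MT-ATP8 (ENSRNOG00000033299) was at 2.73, 4.50 and 6.03 CPM with CTD and at 1.02, 0.466, 0.540 and 0.562 CPM with IMZ (log2 fold change 2.75, SE 0.32, adjusted p = 1.39e-06). It overlaps MT-ATP6 in the mitochondrial genome, so its few counts depend on how overlapping reads were assigned. MT-ATP6 was at 692.8, 643.0 and 880.4 CPM with CTD and at 394.6, 371.0, 389.4 and 449.8 CPM with IMZ (log2 fold change 0.88, SE 0.18, adjusted p = 0.00292). ND3, of complex I, was at 271.3, 251.2 and 288.9 CPM against 139.8, 153.8, 149.1 and 123.4 CPM (log2 fold change 0.93, SE 0.13, adjusted p = 1.7e-05). COI, the most abundant, had a log2 fold change of 0.30 and did not pass (adjusted p = 0.27). Over the 13 mRNAs the median log2 change from control was 0.91 with CTD, 0.04 with IMZ, 0.11 with THI + CTD and 0.06 with IMZ + CTD. Summed, they took 1.53 to 1.99% of the counts in CTD livers, 1.25 to 1.45% in IMZ livers and 0.882 to 1.51% in controls. Livers of the mixtures reached into the CTD range, at up to 1.85% with THI + IMZ, 1.57% with THI + CTD and 1.57% with IMZ + CTD. The share also moves with RNA quality, whose part was not tested. The paper reports a high RNA integrity number for every sample, without a value for each liver.

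Few markers of other cell types passed the test, and the summed level that stood furthest apart was that of red blood cell genes. In bulk liver, fewer cells of a type and less RNA per cell cannot be told apart. The summed level of 11 red blood cell genes was 197.6, 196.5 and 160.6 CPM in CTD livers and 54.6, 86.7, 50.7 and 82.8 CPM in IMZ livers, against 30.5 to 74.8 CPM in controls, without overlap. Of the 11 genes, 7 had a positive and 4 a negative log2 fold change, so the sum does not stand for every member. None of the 11 passed the test, although 6 had an unadjusted p below 0.05, and 1 THI + CTD liver reached 226.6 CPM. Hbb, a beta globin, was at 61.5, 69.5 and 60.7 CPM with CTD and at 10.4, 22.2, 12.9 and 25.2 CPM with IMZ (log2 fold change 1.86, 95% interval 0.67 to 3.04, adjusted p = 0.0603). Hba1, Hba2 and Hbb-b1 had log2 fold changes of 1.49, 1.69 and 1.82, while the membrane gene Slc4a1 was at −0.73. Fitted on the 7 libraries alone, Hba1, Hba2, Hbb and Hbb-b1 passed the test. Blood left in the tissue and its part in the other results was not tested.

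Of 20 Kupffer cell and macrophage genes 3 fell with CTD (15%, median log2 fold change −0.32), namely C1qa and C1qb of complement and Cd68. C1qb was at 51.3, 35.7 and 41.1 CPM with CTD and at 68.6, 60.6, 64.8 and 63.2 CPM with IMZ (log2 fold change −0.59, SE 0.15, adjusted p = 0.0226). The summed level of the list was 801.7 to 1043 CPM with CTD and 1059 to 1220 CPM with IMZ. Without CTD rat 2 or 3 or IMZ rat 1 no member of the list passed. Of 18 endothelial genes Kdr, Cdh5 and Eng fell (16.7%), with Kdr, the VEGF receptor of sinusoids, at 66.9, 55.5 and 63.8 CPM against 83.4, 87.5, 79.2 and 102.9 CPM (log2 fold change −0.51, SE 0.11, adjusted p = 0.00488). The B cell list held 1 DEG of 12, Cd22 (log2 fold change −0.99, SE 0.24, adjusted p = 0.0128) and the hepatocyte list Apoa2 of 22 (−0.51). Of 27 genes of extracellular matrix and stellate cells only Tagln, an actin-binding protein of contractile cells, rose (log2 fold change 1.11, SE 0.26, adjusted p = 0.00959). None of 20 T and NK cell genes, 12 neutrophil genes and 10 pancreas genes passed, where 4, 1 and 0 had an unadjusted p below 0.05. The neutrophil markers Mpo and Elane and the pancreas markers Cela2a and Ins2 were at 0 in all 7 livers. T and NK genes summed to 18.5 to 23.9 CPM with CTD and 24.5 to 31.6 CPM with IMZ, and B cell genes to 7.81 to 11.6 and 13.1 to 20.3 CPM. Cdh5 missed the threshold without CTD rat 2 (0.099), Cd22 without CTD rat 1 (0.0628), CTD rat 2 (0.0791) or IMZ rat 4 (0.0558), Tagln without CTD rat 1 (0.059) or 3 (0.0679), and Apoa2 without CTD rat 1 (0.0926), while Eng lost its call in 5 of the 7 cases.

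**Figure D4:**
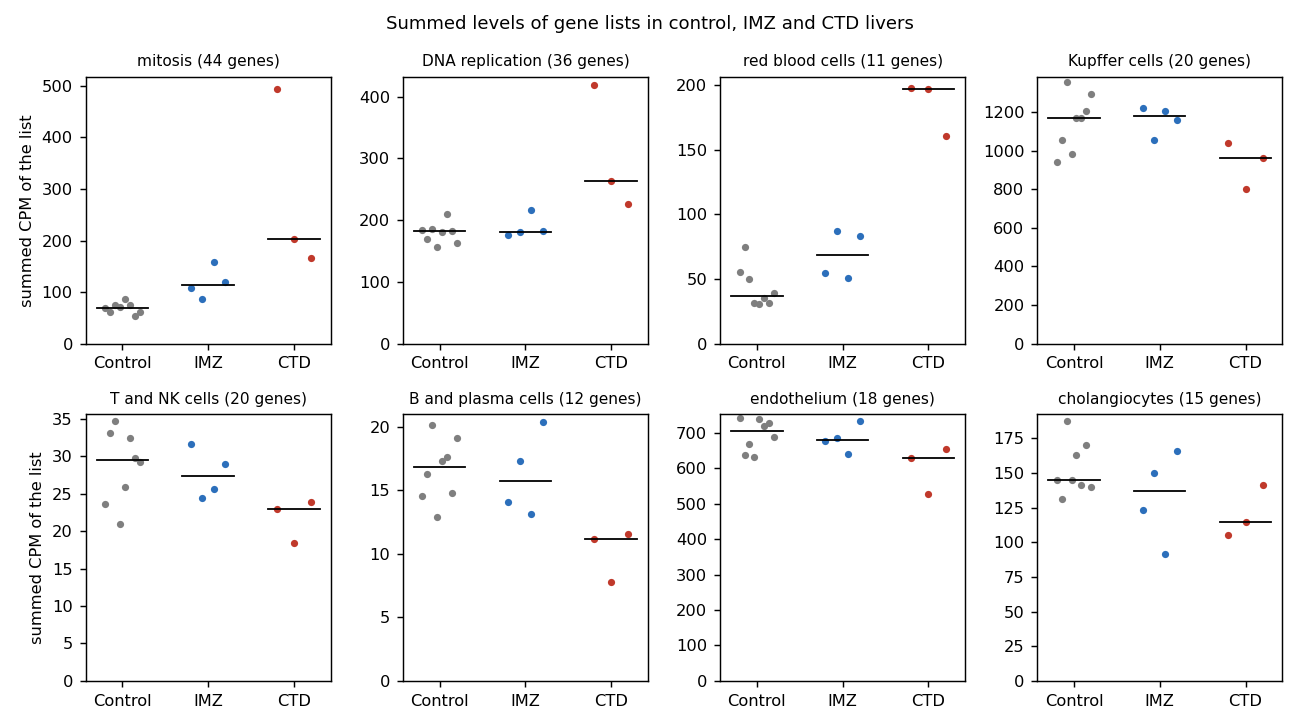
Summed CPM of 8 gene lists (y axes start at 0) in each control, IMZ and CTD liver; points are rats. The mitosis, DNA replication and red blood cell sums of the CTD livers lie above those of all IMZ livers, and the T and B cell sums below them.

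The same pair of compounds can be compared in livers that all received THI, at 54 mg/kg, with CTD at 134 or IMZ at 46 mg/kg added. These 8 livers are not part of the direct comparison. In THI + CTD against THI + IMZ, 34 genes passed the test (0.171%; 13 higher, 21 lower), and 2014 (10.1%) had an unadjusted p below 0.05. The count ran from 0 without THI + IMZ rat 3 to 109 without THI + IMZ rat 4, and was 16, 7 and 2 without THI + CTD rats 1, 2 and 3. The genes shared with the direct comparison were 3, all with the same sign, which is 0.323% of the 930 and 8.82% of the 34. Slbp, which binds the ends of histone mRNAs in S phase, had log2 fold changes of 0.47 and 0.41 (adjusted p = 0.00202 and 0.0378). Fam13a had −0.51 and −0.63 (0.029 and 0.0315), and Creb3l2, a transcription factor of the secretory pathway, −0.56 and −0.78 (0.0496 and 0.0296). These 3 genes were named after their values were seen. Over all genes 4.67% passed in the direct comparison, which is the share to set beside the 8.82%. The direct calls also rested on single livers, as Slbp missed the threshold without CTD rat 1 (0.0545), Fam13a without CTD rat 2 or 3 or IMZ rat 2 or 4 (0.0781 to 0.199), and Creb3l2 without CTD rat 2 or 3 or IMZ rat 1, 2 or 4 (0.0649 to 0.19). Creb3l2 further missed it with DESeq2 size factors (0.0509), with limma-voom (0.0702) and with no filter (0.0613).

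The signs of the DEGs were set beside those of all genes with a mean log2 CPM above 0, without a test. Of the 420 DEGs of that level higher with CTD, 291 (69.3%) were also positive in the THI mixtures, where 50.7% of all such genes were positive. Of the 449 lower, 291 (64.8%) were also negative, where 49.3% of all such genes were. Over all 453 higher and 477 lower DEGs the sizes were small, with median log2 fold changes of 0.09 and −0.07 in the mixtures beside 0.52 and −0.57 in the direct comparison. With an unadjusted p below 0.05 in the mixtures, 76 and 80 of them had the same sign and 10 and 20 the opposite sign. The difference between both comparisons passed the test in 163 genes (0.819%), of which 38 were among the 453 and 109 among the 477, and all 10 genes with the smallest p were among them. These genes were chosen by the direct comparison, which is a part of the difference, so an extreme direct value favours such a call and the counts are descriptions. For Scamp3 the log2 fold change was −1.83 in the direct comparison and 0.02 in the mixtures, and for Serping1 −1.21 and 0.01. The mitosis list had a median of 0.19 in the mixtures, with 35 of 44 positive, and the replication list 0.37, with 35 of 36 positive. No member of either list passed in the mixtures, and none passed the test of the difference. Ccne1, E2f1 and Rhbg had log2 fold changes of 1.06, 1.00 and 1.06 in the mixtures beside 1.45, 1.29 and 1.56. Aldh1a7 was at 1.94 beside 2.60 and Igfbp1 at −2.14 beside −2.09, neither passing the test in the mixtures (adjusted p = 0.0751 and 0.205).

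**Figure D5:**
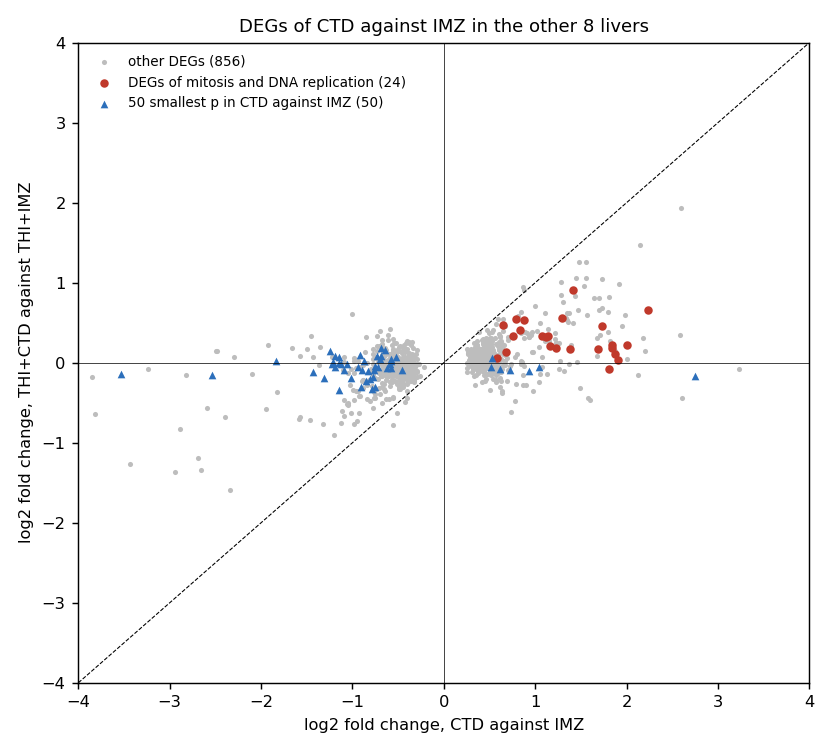
Log2 fold change in the direct comparison of CTD with IMZ (x axis) and in THI + CTD against THI + IMZ (y axis) for the DEGs, with the line of equal values dashed. The 24 DEGs of mitosis and replication and the 50 smallest p values are coloured apart from the other 856 DEGs, and 16 DEGs lie outside the axes. Scamp3, for example, is at −1.83 on the x axis and 0.02 on the y axis.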

How the data were processed

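The authors trimmed reads of a stranded total RNA kit with Skewer, mapped them to Rnor_5.0 with STAR 2.5.2b and counted reads per gene. The strand setting of the counting is not given in the sources used here. The deposited count table holds whole-number counts without normalization. A second deposited table holds a signal, these counts divided by the authors' DESeq2 size factors, and was only checked against the counts. Groups and replicate numbers were taken from the sample labels.

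All 31 libraries were fitted in 1 edgeR 4.0.16 quasi-likelihood model (R 4.3.3; TMM; 1 mean for each of 7 groups), and the contrasts were tested with Benjamini-Hochberg adjustment over 19904 genes (threshold 0.05). Levels are TMM-scaled CPM, and each SE was derived from the fold change and its F statistic. In simulated counts of this comparison, 74.8% of 103 genes changed by 1 log2 unit and 97.9% of 97 changed by 2 were recovered, with 7 false calls among 19904 genes. The changed genes were drawn from those with a mean log2 CPM above 0. Otherwise every group had the same mean and dispersion per gene. The rates thus do not cover lower genes or a group with an outlying liver. Genes were named by a fixed rule, which took the 12 largest changes on either side at a mean log2 CPM above 0, up to 3 DEGs per list by p, and a set list of liver genes. Other list DEGs, the 10 smallest p values, globins and genes shared with the THI mixtures were named after their values were seen. The members, the 36 lists and the tests were chosen with earlier results of these data known, so counts per list are descriptions. Of 777 list entries 739 were tested, and 32 had no match in the count table. The result of 1 list gene is not reported here. Promoters are RefSeq windows of GRCr8, matched by symbol, while the counts rest on Rnor_5.0. Alternatives were DESeq2 1.42.0 (size factors and Wald test), limma 3.58.1 with voom, the newer edgeR method, other count filters, a fit of only the groups compared, thinned counts, a replicate block and leaving out each liver.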

Additional observations from a re-analysis of the deposited data

Results flagged for a closer look

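In 17 of the 102 named genes the log2 fold change of CTD against IMZ differed from that of THI + CTD against THI + IMZ by edgeR's test of the difference itself (adjusted p below 0.05). The difference, direct minus mixture, was largest for MT-ATP8 (2.92) and Rps16 (−2.38). It was −1.85 for Scamp3, −1.85 for Rab27a, −1.79 for Kcp, −1.66 for Plk3, −1.39 for Crkl, −1.32 for Slc10a7, −1.22 for Serping1, −1.14 for Atp6v0c, −1.12 for Htra1, −1.10 for Tmem260, −0.87 for Foxo1, −0.80 for Dynll2 and −0.62 for Stat2. It was 0.82 for Ociad1 and 0.56 for Slco1b3. Over all genes tested the difference passed in 0.819%, but most of these genes were named for their values in the direct comparison, which is a part of the difference and favours such calls. None of the named mitosis or replication genes is among the 17.

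In the IMZ group the CPM of Ccne2 in rat 3 (1.82) stood off from the other 3 rats (0.627 to 0.694). This was the only case in the 102 genes looked at in this group of 4, and chance alone gives about 5% of groups such a gap. The same rat had the highest summed mitosis level of the IMZ group, 157.6 CPM.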

How the results depend on the processing

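Of 73 named DEGs, 20 kept their call in all 16 alternatives and none changed sign in any of them. DESeq2's Wald test gave 1461 DEGs, of which 747 were higher, and a fit of only the groups compared gave 261, of which 98 were higher and 163 lower. For THI + CTD against THI + IMZ, the counts were 227 (Wald test), 22 (no filter) and 5 (only the groups compared), and for the difference between both comparisons 424 (Wald test) and 33 (only the groups compared). Mitosis genes called were 21 with the newer quasi-likelihood method, 6 with no filter and 5 with only the groups compared, and replication genes 3 with only the groups compared. Leaving out 1 liver gave 491 to 895 DEGs (181 to 453 higher, 295 to 468 lower), 0 to 109 for the THI mixtures, 108 to 208 for the difference, 1 to 18 mitosis genes and 1 to 15 replication genes. The cause of these shifts was not tested. Apart from the replicate block, given below, the other alternatives kept these counts within 1.5 times. Smaller lists moved too. The G1 list had 8 DEGs with the Wald test and with the filterByExpr filter, 7 with the newer method and 0 with only the groups compared, beside 4. The DNA damage list had 7 with the Wald test and 0 with only the groups compared, beside 3, and the Kupffer cell list 1 with the block, beside 3.

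Same-numbered CTD and IMZ livers deviated from their group means with correlations of 0.222, 0.123 and 0.045. For livers with different numbers the correlations ran from −0.179 to 0.108. These few low values cannot decide whether the replicate numbers pair the livers, and the main fit treated the livers as unpaired. With the replicate block, the comparison gave 796 DEGs (363 higher, 433 lower), 8 mitosis and 9 replication genes, 16 genes for the THI mixtures and 141 for the difference, and 64 of the 73 named DEGs passed. The block turned the sign of Gclc (−0.0217), Fgf21 (0.0235) and Dbp (−0.0352), which were never called.

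Signs turned only in 9 genes that had not passed. Over all 16 alternatives, the log2 fold change ran from −0.44 to 0.0195 for Cdkn1a (positive without CTD rat 2), from −0.0415 to 0.19 for Mdm2 (negative without CTD rat 1) and from −3.18 to 0.41 for Cyp2b1 (positive without IMZ rat 2). It ran from −0.51 to 0.68 for Cyp2b2 (−0.51 without CTD rat 2, −0.12 and −0.19 without IMZ rats 1 and 4) and from −0.84 to 0.62 for Cyp1a1 (0.14 without CTD rat 2, 0.62 without IMZ rat 2). It ran from −0.10 to 0.22 for Gclc (−0.10 without CTD rat 1 and without CTD rat 2, −0.00467 and −0.0261 without IMZ rats 1 and 2) and from −0.0114 to 0.46 for Aldh1a1 (negative without CTD rat 2). It ran from −0.26 to 0.31 for Fgf21 (0.31 without CTD rat 3, 0.18 and 0.0997 without IMZ rats 1 and 4) and from −0.25 to 0.27 for Dbp (−0.25 without CTD rat 2, −0.0357 and −0.053 without IMZ rats 1 and 4). With limma-voom it was 0.085 for Cyp1a1 and −0.0163 for Gclc, and with thinned counts −0.0101 for Dbp. Of 576 list medians recomputed, 552 moved by less than the spread between livers and 24 by more.

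With 3 CTD livers, genes with a large spread between rats, such as Cyp2b1 and Igfbp1, have intervals of several log2 units, and a miss of the threshold there shows no equality. Genes under 1 CPM rest on few counts per library.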
